A study of Rattus norvegicus with 30 samples.

Results

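The insulin-like growth factor (IGF) genes described here are the 2 ligand genes Igf1 and Igf2, the type 1 receptor gene Igf1r, and the binding protein genes Igfbp2, Igfbp3, Igfbp4, Igfbp5, Igfbp6 and Igfbp7. They were chosen by gene name and make up 9 of the 30562 gene rows of the table. All 9 passed the filter on low counts, which left 16171 genes for testing. The cells were CD31+ lung cells of rats, collected with magnetic microbeads against CD31 (PECAM1), an endothelial surface protein. The animals were wild-type in all groups and were sampled 3 weeks after Glenn or sham surgery. Their diet was control, deficient or in excess for vitamin A, which gave 6 groups of 5 libraries: sham control, Glenn control, sham deficient, Glenn deficient, sham excess and Glenn excess. Glenn surgery (superior cavopulmonary anastomosis) routes blood from the upper body straight into a pulmonary artery, and the lung it supplies then gets blood without the flow from the hepatic veins. Strain and age are not given in the sources used here. The labels do not say that the replicates of a group were separate animals, so the p-values measure only the spread between these libraries.

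IGF1 and IGF2 are small secreted hormones that act through the IGF1 receptor, a tyrosine kinase that signals through PI3 kinase. Circulating IGF1 comes largely from the liver under growth hormone, and many tissues also make IGFs locally. The high-affinity binding proteins hold the ligands in blood and matrix, keep them from the receptor or deliver them to it, and release them when proteases cut the carrier. IGFBP7 binds IGFs weakly and is an abundant secreted protein of endothelial cells.

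The promoters of 4 binding protein genes are shown because these are the ones that passed the test between operations averaged over diets, Igfbp3, Igfbp4 and Igfbp5 higher and Igfbp7 lower. Each sequence is the 150 bases before the annotated gene start, 5′ to 3′ on the gene's strand, from RefSeq (GRCr8). Igfbp3 lies at chr14:86277945-86278094 (minus strand), Igfbp4 at chr10:84491321-84491470 (plus), Igfbp5 at chr9:81914188-81914337 (minus) and Igfbp7 at chr14:31091586-31091735 (plus). Capitals mark matches, on either strand, to 7 short motifs.
Igfbp3: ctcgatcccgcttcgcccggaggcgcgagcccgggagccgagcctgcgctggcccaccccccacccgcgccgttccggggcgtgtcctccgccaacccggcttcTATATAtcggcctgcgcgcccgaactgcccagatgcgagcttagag
Igfbp4: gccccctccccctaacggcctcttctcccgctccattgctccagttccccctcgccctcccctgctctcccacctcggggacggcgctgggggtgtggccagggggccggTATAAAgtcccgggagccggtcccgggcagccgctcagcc
Igfbp5: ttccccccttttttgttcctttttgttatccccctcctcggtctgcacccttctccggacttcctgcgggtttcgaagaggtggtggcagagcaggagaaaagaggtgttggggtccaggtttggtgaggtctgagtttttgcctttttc
Igfbp7: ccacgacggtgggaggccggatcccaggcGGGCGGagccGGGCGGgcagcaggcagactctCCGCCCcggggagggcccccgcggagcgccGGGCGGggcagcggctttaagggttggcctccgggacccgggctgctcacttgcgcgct

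The motifs searched were the TATA box TATAAA (in 8% of 33469 rat promoters of this length), its variant TATATA (3.16%), the GC box GGGCGG (26%), the hypoxia element core ACGTG (10.8%), the BMP-SMAD palindrome GGCGCC (6.31%), the retinoic acid receptor half-site AGGTCA (8.76%) and the forkhead core TGTTTA (6.9%). No 2 of them share letters in full, and a CACGTG stretch counts as ACGTG on both strands. The Igfbp3 promoter held TATATA from 46 bases before the start, and the Igfbp4 promoter held TATAAA from 40 bases before it. The Igfbp7 promoter held 4 GC boxes, and the Igfbp5 window held none of the 7 motifs. Among the others, Igfbp2 had 1 GC box and a CACGTG stretch, Igf1r had 3 ACGTG matches, 1 of the 2 listed Igf2 promoters had 1 GC box, and the windows of Igf1 and Igfbp6 had no match. A match is a description of letters and not a binding site. In RefSeq's gene order on GRCr8, Igfbp2 and Igfbp5 are neighbours on chromosome 9, and Igfbp3 sits next to Igfbp1 on chromosome 14.

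Total estimated counts were 22.03 to 77.6 M per library (M, mega). Values below are counts per M counts of the library after TMM scaling (CPM), and since transcript lengths were not used, levels are compared between groups and not between genes. The libraries also differed by features outside the groups. The library names fall into 2 number ranges, called series A (22 libraries) and series B (8), and the sham control, Glenn control and sham excess groups hold series A only. The histocompatibility gene RT1-CE16 was low in 17 libraries and high in 13, and all 5 sham excess libraries were low. On the control and deficient diets the low libraries were sham replicates 1 and 2 and Glenn replicates 1 to 3. In Glenn excess they were replicates 1 and 2. On the deficient and excess diets series A holds these same libraries. Fits of RT1-CE16-low libraries alone, or of series A alone on those 2 diets, thus compared few libraries. The endothelial marker Cdh5 stood at 1557 to 2925 CPM over all libraries.

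Markers of other cell types were also present, and many of them moved with surgery. The counts below are for the comparison averaged over diets. There 48.2% of all 16171 genes were called (edgeR, adjusted p under 0.05), 23.4% higher and 24.7% lower. All 9 mural cell markers (pericytes and smooth muscle) were higher after Glenn surgery averaged over diets, and their summed level was 178 to 367 CPM in sham and 535 to 1824 CPM in Glenn libraries. Of 8 fibroblast markers 6 were higher, with sums of 1409 to 3379 and 1945 to 4835 CPM. All 5 lymphatic endothelial markers were higher, with sums of 566 to 1095 and 919 to 1534 CPM. None of the 4 tested mesothelial markers was called (edgeR; 0 at an unadjusted p under 0.05), and their sums were 210.0 to 499 and 142 to 577 CPM. Of the 4 aerocyte capillary markers 3 were lower, with sums of 887 to 1532 and 355 to 540.5 CPM. Of 6 tested macrophage markers 2 were higher and 2 lower, with sums set almost wholly by Lyz2 of 13034 to 24464 and 8082 to 18887 CPM. All 5 type 2 alveolar markers were lower, with sums of 32453.5 to 55668 CPM in sham and 23261 to 53283 CPM in Glenn libraries. The 6 endothelial markers summed to 7140 to 9120 and 5037 to 6909 CPM. Sums were not scaled by transcript length, so they do not give shares of cells. Of 5 type 1 alveolar markers 4 were higher and 1 lower, and 3 of 4 general capillary markers were lower. Of 5 arterial markers 4 were higher and 1 lower, and of 5 venous markers 1 was higher and 3 were lower. The macrophage gene Marco had 0 to 6 counts in a library. No mural or fibroblast marker was at 0. The part of these cell types in the results below was not tested, and in sorted bulk cells a change in how many cells of a type were present cannot be told apart from a change in RNA per cell.

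Averaged over the diets, 7 of the 9 IGF genes passed the test between Glenn and sham libraries (edgeR quasi-likelihood test, adjusted p under 0.05), against 48.2% of all 16171 genes. Higher were 6 of 9, namely Igf1, Igf2, Igf1r, Igfbp3, Igfbp4 and Igfbp5, where 23.4% of all genes were higher. Igfbp7 was lower, as were 24.7% of all genes, and Igfbp2 and Igfbp6 did not pass. The median log2 change was 1.46 over the 9 genes and -0.013 over all genes tested. For 4 genes, Igf1, Igfbp3, Igfbp4 and Igfbp5, every Glenn library lay above every sham library, which held for 3.1% of all genes. Together the 9 genes took 0.131% to 0.175% of a sham library's counts and 0.228% to 0.374% of a Glenn library's.

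**Figure D1:**
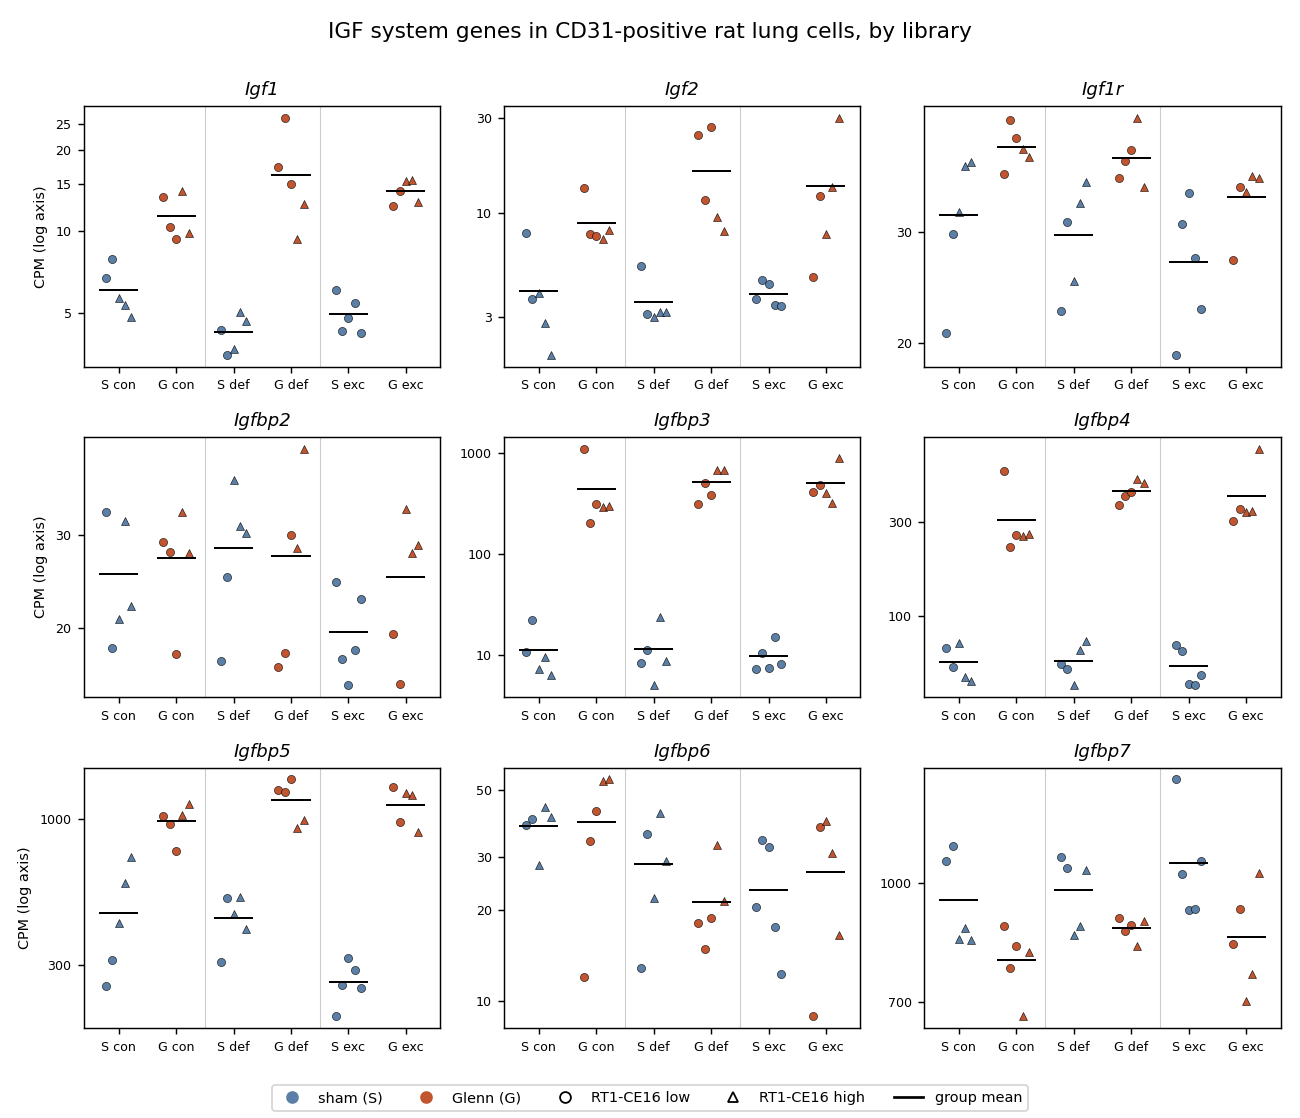
Level of each of the 9 IGF genes in each library (y axis, CPM on a log axis; 1 point per library, black line the group mean, S sham and G Glenn on the control, deficient and excess diet; triangles are libraries with high RT1-CE16). Glenn libraries of Igfbp3 (202 to 1097 CPM) and Igfbp4 (223 to 709.6 CPM) lie far above all sham libraries, while Igfbp2 and Igfbp6 overlap in every diet.

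Igf1 (ENSRNOG00000004517), the ligand that mediates most growth hormone action, was 2.75-fold higher in Glenn than in sham libraries. With the control diet, sham replicates 1 to 5 had 6.74, 7.88, 5.69, 5.36 and 4.81 CPM, and Glenn replicates had 13.4, 10.4, 9.41, 14.1 and 9.87 CPM. On the deficient diet, sham replicates had 4.32, 3.498, 3.67, 5.03 and 4.68 CPM, and Glenn replicates had 17.3, 26.4, 14.98, 9.35 and 12.7 CPM. On the excess diet, sham replicates had 6.05, 4.296, 4.77, 5.44 and 4.21 CPM, and Glenn replicates had 12.4, 14.2, 15.4, 15.5 and 12.9 CPM. Every Glenn library thus exceeded every sham library, also across diets, with a Glenn minimum of 9.35 CPM and a sham maximum of 7.88 CPM. The means were 5.10 ± 1.16 CPM in sham and 13.9 ± 4.20 CPM in Glenn libraries (SD, n = 15 each). The averaged log2 change was 1.46 (SE 0.11, edgeR adjusted p 6.93e-12). By diet it was 0.90 (SE 0.19) on control, 1.87 (SE 0.20) on deficient and 1.61 (SE 0.22) on excess diet, each past the threshold. Among the RT1-CE16-low libraries alone the control diet change was 0.61 and no longer passed (edgeR adjusted p 0.134). That value compared only sham replicates 1 and 2 with Glenn replicates 1 to 3.

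Igf2 (ENSRNOG00000020369), a ligand best known for fetal growth, was 3.33-fold higher in Glenn libraries, with a wide spread. With the control diet, sham replicates 1 to 5 had 7.95, 3.73, 3.98, 2.82 and 1.95 CPM, and Glenn replicates had 13.4, 7.81, 7.69, 7.38 and 8.25 CPM. On the deficient diet, sham replicates had 5.45, 3.12, 3.01, 3.18 and 3.19 CPM, and Glenn replicates had 24.6, 11.6, 26.9, 9.59 and 8.08 CPM. On the excess diet, sham replicates had 3.70, 4.59, 4.39, 3.46 and 3.42 CPM, and Glenn replicates had 4.80, 12.1, 7.87, 13.5 and 29.9 CPM. The groups overlapped on the control diet, where 1 sham library lay within the Glenn range, and did not overlap within the deficient or the excess diet. The averaged log2 change was 1.73 (SE 0.24, edgeR adjusted p 9.64e-07). It was 2.09 (SE 0.42) on the deficient and 1.99 (SE 0.48) on the excess diet.

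The control diet change of Igf2 was 1.12 (SE 0.40, edgeR adjusted p 0.0403) and rested on few libraries. It lost the threshold without any one of sham control replicates 2, 3, 4 and 5 or Glenn control replicates 1, 3 and 5, with values of 0.93 to 1.17 and edgeR adjusted p of 0.0503 to 0.114. Among RT1-CE16-low libraries it was 0.73 (edgeR adjusted p 0.374), and with no filter on low counts it was 1.12 (edgeR adjusted p 0.0669). The excess diet change was 1.12 and no longer passed among RT1-CE16-low libraries (edgeR adjusted p 0.0717), in series A alone (0.0805) and in a fit of its 2 groups alone (0.120). Igf2 and the mural markers moved together among Glenn libraries, and no such relation was seen among sham libraries. The mural score, the mean log2(CPM + 1) of the 9 markers, was 4.58 ± 0.26 in sham and 6.02 ± 0.46 in Glenn libraries (SD, n = 15 each). Within the 15 Glenn libraries the Pearson r between Igf2 and that score was 0.78 (permutation p 0.00048, adjusted over 12 relations 0.00288) and Spearman's rho was 0.68 (permutation p 0.00698). The r was 0.58 without the 2 libraries farthest from the median Igf2 level and 0.76 in the 10 series A libraries. Within the 15 sham libraries r was 0.10 and rho -0.32, and the difference between the operations was not tested. These values pool the 3 diets. After subtracting group means r was 0.64 over all 30 libraries, as a description. The 12 relations were picked once values were known, and series B had too few libraries in either operation for a value of its own.

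H19, a noncoding RNA of the imprinted domain that also holds Igf2, was near the detection limit in sham libraries, at 0.0206 to 0.504 CPM and 1 to 18 estimated counts per library. In Glenn libraries it had 0.602 to 3.13 CPM and 29 to 109 estimated counts, with no overlap between the operations. The averaged log2 change was 2.98 (SE 0.31, edgeR adjusted p 4.02e-09), with 2.61 on control, 2.84 on deficient and 3.51 on excess diet. In the RT1-CE16-low libraries alone the control and deficient values were 2.71 and 2.67 and missed the threshold (edgeR adjusted p 0.0639 and 0.0504). Between Igf2 and H19 within the Glenn libraries r was 0.53 (permutation p 0.0406, adjusted over 12 relations 0.0696) and rho 0.54 (permutation p 0.0421), and r fell to 0.39 without the 2 farthest libraries. It was 0.70 in the 10 series A libraries. Within the sham libraries r was 0.13 and rho 0.04. H19 was therefore high in Glenn libraries as a group, and within either operation its relation to Igf2 did not pass after adjustment.

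**Figure D2:**
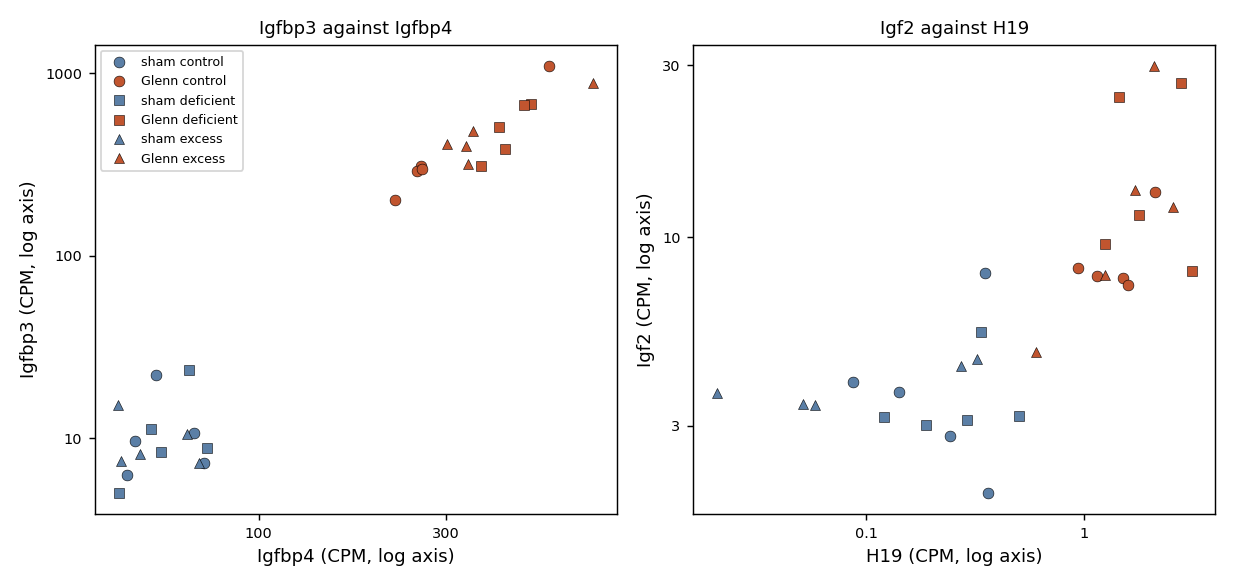
Igfbp3 against Igfbp4 (left) and Igf2 against H19 (right) in each library, both axes in CPM on log axes, blue for sham and orange for Glenn, with a marker per diet. Within the Glenn libraries Igfbp3 and Igfbp4 line up (r = 0.90), and within the sham libraries they do not (r = 0.17).

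Igf1r (ENSRNOG00000014187), the receptor for both ligands, was 1.27-fold higher after Glenn surgery, with overlapping groups. Sham libraries had 19.2 to 38.7 CPM (median 30.9) and Glenn libraries 27.0 to 45.5 CPM (median 37.1). Its averaged log2 change was 0.35 (SE 0.09, edgeR adjusted p 0.00148). By diet only the deficient diet passed, at 0.45 (SE 0.15, edgeR adjusted p 0.0262), against 0.36 on control (edgeR adjusted p 0.0775) and 0.24 on excess diet (edgeR adjusted p 0.342). The deficient diet call was lost without sham deficient replicates 1 or 3 or Glenn deficient replicates 3 or 4 (0.36 to 0.42, edgeR adjusted p 0.0531 to 0.109), in series A alone (0.53, edgeR adjusted p 0.137) and among RT1-CE16-low libraries (0.53, edgeR adjusted p 0.133). The control diet change passed without sham control replicate 4 (0.43, edgeR adjusted p 0.0470) or 5 (0.44, edgeR adjusted p 0.0428). It also passed in a fit that held RT1-CE16 level instead of series (0.41, edgeR adjusted p 0.0328), with series and sex as terms (0.37, edgeR adjusted p 0.0259) and with the replicate block (0.38, edgeR adjusted p 0.0172). With sex read from the Y-linked gene Ddx3y, the male minus female log2 difference of Igf1r was -0.27 and did not pass (edgeR adjusted p 0.253).

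Igfbp3 (ENSRNOG00000061910), the main carrier of IGFs in blood, had the largest change of the 9 genes. On the control diet, sham replicates 1 to 5 had 10.7, 22.1, 7.29, 9.59 and 6.27 CPM, and Glenn replicates had 1097, 202, 310.3, 289.9 and 298 CPM. On the deficient diet, sham replicates had 8.40, 11.2, 4.99, 23.5 and 8.77 CPM, and Glenn replicates had 309, 505, 383, 678 and 670.4 CPM. On the excess diet, sham replicates had 7.31, 10.5, 7.49, 15.1 and 8.22 CPM, and Glenn replicates had 409, 483, 399.6, 317 and 887.9 CPM. The lowest Glenn library (202 CPM) was far above the highest sham library (23.5 CPM), and Glenn control replicate 1 stood apart from the rest of its group. Averaged over diets the log2 change was 5.41 (SE 0.30, edgeR adjusted p 1.76e-13), a 42.4-fold difference, and ranked 13 by size among the genes that were higher. It was 5.28 (SE 0.52), 5.54 (SE 0.53) and 5.40 (SE 0.54) on the control, deficient and excess diet. Without Glenn control replicate 1 the control diet value was 4.61.

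Igfbp4 (ENSRNOG00000010635), a carrier that holds IGFs away from the receptor until the protease PAPP-A cuts it, was 6.40-fold higher in Glenn libraries. Control diet sham replicates 1 to 5 had 68.4, 54.8, 72.4, 48.4 and 46.1 CPM, and Glenn replicates had 547, 223, 258, 253 and 260.5 CPM. On the deficient diet, sham replicates had 56.3, 53.1, 44.2, 66.5 and 73.8 CPM, and Glenn replicates had 367, 409, 424, 494 and 472 CPM. On the excess diet, sham replicates had 70.4, 65.9, 44.8, 44.0 and 49.9 CPM, and Glenn replicates had 302, 351, 337, 342 and 709.6 CPM. The groups did not overlap in any diet, and 1 Glenn library each on the control and excess diets stood above its group. Averaged over diets the log2 change was 2.68 (SE 0.14, edgeR adjusted p 8.38e-15), with 2.41 (SE 0.24), 2.94 (SE 0.24) and 2.69 (SE 0.26) on the control, deficient and excess diet.

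Igfbp3 and Igfbp4 rose and also varied together among Glenn libraries. Within the 15 Glenn libraries r was 0.90 on log2(CPM + 1) (permutation p 1e-05, the smallest that the resamples can give, adjusted over 12 relations 0.00012) and rho was 0.87 (permutation p 1e-04). It was 0.86 without the 2 libraries farthest from the median and 0.87 in the 10 series A libraries. Within the 15 sham libraries r was 0.17 (permutation p 0.552) and rho 0.10. The difference between the 2 correlations was not tested. These values and their permutations pool the 3 diets. After subtracting group means r between Igfbp3 and Igfbp4 was 0.63 over all 30 libraries, as a description. After subtracting group means, r with the mural score over 30 libraries was -0.12 for Igfbp3 and 0.02 for Igfbp4, as a description. Without that subtraction it was 0.87 and 0.88, since both genes and the score were higher in Glenn libraries. The part of mural cells in the difference between operations was not tested.

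Igfbp5 (ENSRNOG00000017206), a carrier that also binds extracellular matrix, was 2.91-fold higher in Glenn libraries. Control diet sham replicates 1 to 5 had 253, 314, 425, 589 and 729 CPM, and Glenn replicates had 1026, 960.1, 769, 1030.02 and 1128 CPM. On the deficient diet, sham replicates had 307, 521, 456, 526 and 405 CPM, and Glenn replicates had 1275, 1253, 1386, 932 and 990.2 CPM. On the excess diet, sham replicates had 196, 255, 319, 287 and 248.8 CPM, and Glenn replicates had 1302, 972, 1240.5, 1219 and 895 CPM. All 15 Glenn libraries lay above all sham libraries, whose levels were spread most on the control diet. The averaged log2 change was 1.54 (SE 0.12, edgeR adjusted p 4.29e-11). By diet the values were 1.09 (SE 0.21, control), 1.37 (SE 0.22, deficient) and 2.17 (SE 0.24, excess), and among RT1-CE16-low libraries the control diet value was 1.71. The diet dependence missed the threshold, with an interaction p of 0.00682 before and 0.681 after adjustment (edgeR). All 5 lymphatic markers were higher averaged over diets, where 23.4% of all genes were higher. Between Igfbp5 and the lymphatic score r was 0.40 within the 15 sham libraries (permutation p 0.148, adjusted over 12 relations 0.197) and 0.44 within the 15 Glenn libraries (permutation p 0.103, adjusted 0.154). Spearman's rho was 0.56 (permutation p 0.0314, adjusted 0.0538) and 0.32 (permutation p 0.247, adjusted 0.296), so neither relation passed after adjustment. Without the 2 farthest libraries r was 0.29 and 0.24, and in series A 0.67 (12 libraries) and 0.21 (10 libraries).

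**Figure D3:**
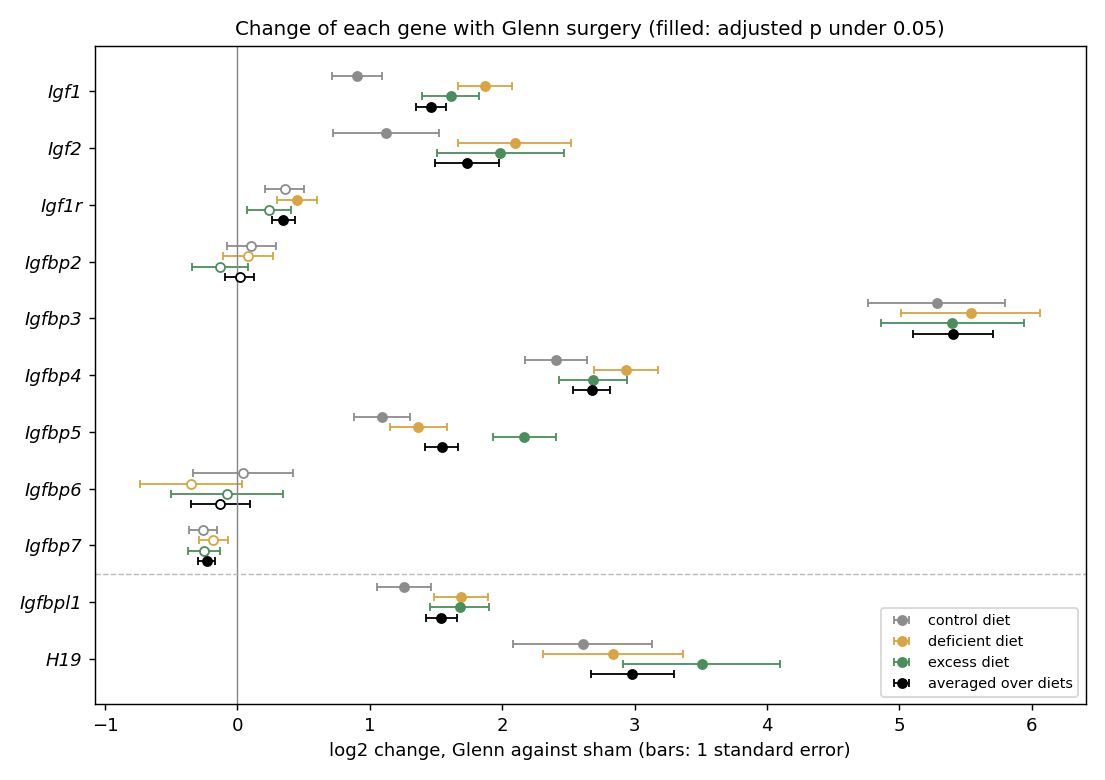
Fitted log2 change between Glenn and sham libraries (x axis; bars are 1 standard error) for the 9 IGF genes and, below the dashed line, for Igfbpl1 and H19, on each diet and averaged. Filled points have an adjusted p under 0.05. Igfbp3 changed by 5.28 to 5.54 in every diet, and Igfbp7 was called in the average alone.

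Igfbp2 and Igfbp6 did not pass the test between the operations. Igfbp2 (ENSRNOG00000016957), a carrier widely expressed in fetal tissues, had 15.5 to 38.2 CPM in sham libraries (median 22.7) and 15.7 to 43.8 CPM in Glenn libraries (median 27.8). Its averaged log2 change was 0.02 (SE 0.11, edgeR adjusted p 0.916). Igfbp6 (ENSRNOG00000010977), which prefers IGF2, had 12.3 to 43.9 CPM in sham libraries (median 32.3) and 8.87 to 54.3 CPM in Glenn libraries (median 31.0). Its averaged log2 change was -0.13 (SE 0.22, edgeR adjusted p 0.666). Both genes varied several-fold within an operation without separating the groups. Igfbp2, a neighbour of Igfbp5 in the genome, was higher in series B than in series A libraries by 0.72 on the log2 scale (edgeR adjusted p 0.0160), and higher in RT1-CE16-high than in low libraries by 0.48 (edgeR adjusted p 0.0300).

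The mesothelial markers moved with both genes. For Igfbp2 and the mesothelial score, r was 0.60 within the 15 sham libraries (permutation p 0.0204, adjusted over 12 relations 0.0408) and 0.78 within the 15 Glenn libraries (permutation p 0.00076, adjusted 0.00304), with rho of 0.61 and 0.66. Without the 2 farthest libraries the values were 0.70 and 0.74, and in series A 0.47 (12 libraries) and 0.73 (10 libraries). For Igfbp6, r was 0.65 in sham (permutation p 0.00861, adjusted 0.0207) and 0.67 in Glenn libraries (permutation p 0.00662, adjusted 0.0199). Its rho was 0.78 in sham (permutation p 0.0011, adjusted 0.0066) and 0.58 in Glenn libraries. The rho in Glenn libraries missed the threshold after adjustment (permutation p 0.0271, adjusted 0.0538). Without the 2 farthest libraries the r values were 0.52 and 0.50, and in series A 0.70 and 0.76. In these libraries both genes tended to be higher where the mesothelial score was higher. These relations were among the 12 picked once values were known, so their p-values are not an independent test. The mesothelial score itself was 5.43 ± 0.48 in sham and 5.41 ± 0.54 in Glenn libraries (SD, n = 15 each). The r and rho values above and their permutations pool the 3 diets. Among sham groups the excess diet had the lowest mean score (4.98), Igfbp2 (19.6 CPM) and Igfbp6 (23.4 CPM). After subtracting group means r with the score was 0.66 for Igfbp2 and 0.62 for Igfbp6 over all 30 libraries, as a description.

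Igfbp7 (ENSRNOG00000002050), the abundant endothelial member, was 1.17-fold lower after Glenn surgery. Sham libraries had 844 to 1359 CPM (median 1025) and Glenn libraries 672 to 1029 CPM (median 834), and the groups overlapped. Its averaged log2 change was -0.23 (SE 0.06, edgeR adjusted p 0.00356). No single diet passed in the fit used here, with -0.26 on control (edgeR adjusted p 0.0823), -0.18 on deficient (edgeR adjusted p 0.231) and -0.25 on excess diet (edgeR adjusted p 0.144). Without Glenn excess replicate 5 the excess value was -0.32 and passed (edgeR adjusted p 0.0469). Averaged over diets 5 of 6 endothelial markers were called, 4 lower and 1 higher, against 48.2% of all genes. The endothelial marker sums were 7140 to 9120 CPM in sham and 5037 to 6909 CPM in Glenn libraries. The part of these markers in the lower Igfbp7 was not tested.

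Within each diet the same 5 genes, Igf1, Igf2, Igfbp3, Igfbp4 and Igfbp5, were higher in Glenn libraries. On the control diet that was 5 of 9, where 11.8% of all genes were higher, and on the excess diet 5 of 9, where 11.6% were higher. On the deficient diet it was 6 of 9, with Igf1r, where 13.7% were higher. Groups did not overlap, with Glenn higher, for 4 of the 9 on the control diet (7.78% of all genes), 5 on the deficient diet (10%) and 5 on the excess diet (8.59%). The 3 diets share no library.

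Of 33 other genes of the IGF pathway, 28 were tested. Irs4 had no row in the table, and Insrr, Igfbp1, Igfals and Igf2bp1 were below the filter, with Igfbp1 at 0 to 3 counts in a library. Averaged over diets 12 of 28 were called (10 higher and 2 lower; 48.2% of all genes were called), with a median log2 change of 0.09. Apart from H19, only Igfbpl1, a secreted protein with an IGFBP-like domain, changed by at least 1 on the log2 scale. It had 2.35 to 5.22 CPM in sham libraries (median 3.28) and 5.74 to 12.8 CPM in Glenn libraries (median 10.2), with no overlap, and a log2 change of 1.54 (SE 0.12; adjusted p 8.41e-12, edgeR). In that comparison 23.4% of all genes were higher and 24.7% lower. Of the hormone receptors 1 of 3 was higher, the insulin receptor Insr (0.48). Of 5 genes for proteases that cut binding proteins and their inhibitors, the protease Htra1 was higher (0.38) and Stc1, an inhibitor of PAPP-A, was lower (-0.45). Of 16 adaptors and kinases 7 were called, against 48.2% of all genes. Higher were 6, among them the adaptor Shc1 (0.58) and the receptor substrate Irs1 (0.42), and the PI3 kinase subunit Pik3ca was lower (-0.49). On the control, deficient and excess diet 6, 6 and 7 of the 28 were called, against 24.9%, 27.4% and 21.9% of all genes.

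Diet alone called none of the 9 IGF genes in any of 6 comparisons, and few genes of the whole table passed in most of them. After sham surgery, deficient against control diet gave 0 of 9 members called (edgeR) against 0% of all genes (844 at an unadjusted p under 0.05), excess against control 0 of 9 against 0.241%, and excess against deficient 0 of 9 against 0.0124%. After Glenn surgery, deficient against control gave 0 of 9 members called (edgeR) against 0.00618%, excess against control 0 of 9 against 1.47%, and excess against deficient 0 of 9 against 0% (837 genes at an unadjusted p under 0.05). The surgery by diet interaction called 0 of 9, against 0.00618% of all genes. DESeq2 and limma voom called 0 of 9 in each of these 7 tests, except 1 (Igfbp5) each for excess against control diet after sham. The edgeR fit called none of the 28 pathway genes in the 7 tests (at most 8 at an unadjusted p under 0.05, for excess against control diet after Glenn, where 2254 of all 16171 genes were). At an unadjusted p under 0.05 stood, after sham surgery, 1 member for excess against control diet (1788 of all 16171 genes) and 1 for excess against deficient diet (854 genes). After Glenn surgery 2 members stood there for excess against control diet (2254 genes) and 3 for deficient against control diet (1598 genes).

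Igfbp5 came closest. Sham libraries had 462 ± 197 CPM with the control, 443 ± 90.6 CPM with the deficient and 261 ± 45.9 CPM with the excess diet (SD, n = 5 each). The log2 change of excess against control was -0.82 (SE 0.21, p 0.000568, edgeR adjusted p 0.0859), and that of excess against deficient -0.83 (SE 0.24, edgeR adjusted p 0.450). The first passed without sham control replicate 1 (-0.98, edgeR adjusted p 0.0337) or 2 (-0.93, edgeR adjusted p 0.0417). All 5 sham excess libraries were RT1-CE16-low, as were the 2 lowest sham control libraries (253 and 314 CPM), while the other 3 sham control libraries were RT1-CE16-high (425 to 729 CPM). Among RT1-CE16-low libraries alone the change was -0.12. In a fit that held RT1-CE16 level instead of series it was -0.68 (edgeR adjusted p 0.457). The RT1-CE16-low sham deficient replicates 1 and 2 had 307 and 521 CPM, and over all libraries the RT1-CE16 high minus low difference of Igfbp5 was 0.19 and did not pass (edgeR adjusted p 0.457).

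**Figure D4:**
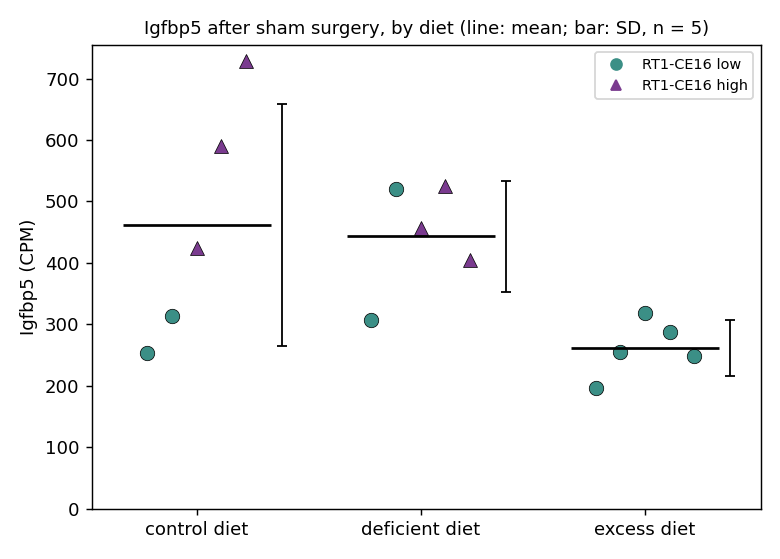
Igfbp5 in the 15 sham libraries by diet (y axis, CPM; 1 point per library, line the group mean, bar the SD, n = 5; triangles are libraries with high RT1-CE16). The 5 excess libraries (196 to 319 CPM) are all RT1-CE16-low and lie near the 2 low control libraries (253 and 314 CPM).

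The other diet differences with an unadjusted p under 0.05 were in Glenn libraries. Deficient against control diet gave a log2 change of 0.55 for Igf1 (SE 0.19, edgeR adjusted p 0.330), 0.92 for Igf2 (SE 0.40, edgeR adjusted p 0.433) and -1.10 for Igfbp6 (SE 0.41, edgeR adjusted p 0.350). In that comparison no marker of the mesothelial or fibroblast lists was called by edgeR, but all 4 tested mesothelial markers (median log2 change -0.71) and 4 of 8 fibroblast markers (median 0.79) had an unadjusted p under 0.05. Their part in these values was not tested. Excess against control diet gave -0.37 for Igf1r (SE 0.17, edgeR adjusted p 0.304) and -0.60 for Igfbp2 (SE 0.21, edgeR adjusted p 0.157). The Igfbp2 group means were close, at 25.0 ± 7.29 CPM in Glenn excess and 27.2 ± 5.67 CPM in Glenn control libraries (SD, n = 5 each). Series B, where Igfbp2 was higher by 0.72, holds 3 of the 5 Glenn excess libraries and no Glenn control library, and without the series term the value was -0.12 (edgeR adjusted p 0.921). For excess against control diet all 4 tested mesothelial markers had an unadjusted p under 0.05. Of them 1 was called lower, as were 0.575% of all genes, and the part of this in Igfbp2 was not tested. For Igf1r every Glenn excess library (27.0 to 36.8 CPM) lay below every Glenn control library (37.1 to 45.1 CPM), by a narrow gap. The share of all genes that separate in this way was not computed for this comparison, and Igf1r did not pass its test. For Igf1 the interaction p was 0.00377 before and 0.559 after adjustment (edgeR).

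In the order of group means, the 3 sham groups of Igf1, Igf2, Igf1r, Igfbp3, Igfbp4 and Igfbp5 all stood below the 3 Glenn groups, and neighbouring groups of 1 operation overlapped. Among the sham groups Igf1 was lowest on the deficient (4.24 ± 0.65 CPM) and highest on the control diet (6.10 ± 1.22 CPM), while among the Glenn groups it was lowest on the control (11.4 ± 2.15 CPM) and highest on the deficient diet (16.1 ± 6.42 CPM; SD, n = 5 each). Igf2 was likewise lowest in sham deficient (3.59 ± 1.04 CPM) and highest in Glenn deficient libraries (16.1 ± 8.88 CPM; SD, n = 5 each). For Igfbp7 the 3 Glenn groups stood below the 3 sham groups. For Igfbp2 and Igfbp6 the operations were mixed in the order.

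The genes that varied most like each IGF gene within groups were found over 30 libraries among 12718 genes, by the Pearson r of log2(CPM + 1) after subtracting group means, as a description. Libraries share their depth and cell makeup across all genes. Igf1 was followed by Mmp2 (0.69), a matrix protease, Ccl21 (0.65), a chemokine of lymphatic endothelium, and Lrfn3 (0.64). Igf2 was followed by Ramp1 (0.76), Fn1 (0.72), the matrix protein fibronectin, and Fblim1 (0.72). Igf1r was followed by Zhx2 (0.79), Phc3 (0.74) and Mllt6 (0.73). For Igfbp2 they were Rpp25 (0.81), Scg5 (0.79) and Pcolce (0.76), for Igfbp3 Nox4 (0.74), Capns1 (0.71) and Ccdc88c (0.70), and for Igfbp4 Kiaa1549 (0.80), Ucp2 (0.80) and the gap junction gene Gja4 (0.77). For Igfbp5 they were the leptin receptor Lepr (0.74), Fkbp14 (0.73) and Hacd4 (0.73), for Igfbp6 Fam180a (0.81), Alox15 (0.80) and Slc51a (0.80), and for Igfbp7 Smarcb1 (0.85), Mrpl23 (0.82) and Mrpl28 (0.81). Over all 30 libraries without that subtraction the r of Igf1 with Mmp2 was 0.95 and that of Igf2 with Ramp1 0.91. Some genes did not follow the IGF gene between operations. The r of Igf1 with Lrfn3 was -0.77, and those of Igfbp4 with Gja4, Ucp2 and Kiaa1549 were -0.50, -0.47 and 0.02. Lrfn3, Gja4 and Ucp2 were lower after Glenn surgery (log2 change -1.60, -0.54 and -0.36).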

How the data were processed

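Sequencing libraries of sorted CD31+ rat lung cells were made with a low-input SMART-Seq kit from RNA taken with a PureLink kit, per the labels' protocols. The submitters' processing notes name FastQC, Trim Galore, Picard, STAR and Salmon, without versions, and the builds mRatBN7.2 and rn7. The table the authors deposited holds estimated counts (expected counts) per gene in 30 columns, of which 13.6% are not whole numbers. It was used in full, with groups from the labels. Reads shared by overlapping genes are split by the authors' estimate, and strandedness is not given in the sources used here.

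Counts were rounded, filtered (filterByExpr, minimum count 10, minimum total 15) and scaled by TMM in edgeR 4.0.16 with R 4.3.3. One quasi-likelihood fit with robust estimates held the 6 groups and the library series. Benjamini-Hochberg adjustment of the p-values ran over 16171 genes, and an adjusted p under 0.05 is called a change. Standard errors come from the log2 change and the square root of its F statistic. RT1-CE16 was taken as high above 100 CPM, and Ddx3y above 10 CPM marked males. Permutation tests of correlations used 100000 resamples, two-sided.

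All 9 IGF genes are named, pathway genes called in the averaged surgery comparison with a log2 change of at least 1, and the 3 most similar genes per member with a mean of at least 1 CPM. Pathway genes named with smaller changes were chosen after their values were seen. Values of 1 pathway gene are not reported here. The members and lists were chosen with earlier results of these data known. Alternatives were other terms, scaling, filters, DESeq2 1.42.0, limma 3.58.1 voom and leaving out each library. On simulated data for the averaged comparison the test recovered 194 of 200 changed genes among 16007, with 16 false calls, and 46 of 50 at 1.5-fold. All changed genes there had a mean above 1 CPM, and no series, diet or cell makeup effect was added. In the real data 48.2% of all genes were called, a setting that the simulation did not cover. Figures were drawn with matplotlib 3.10.9. Sequences and gene order came from RefSeq (GRCr8), which lists a promoter for all 9 genes, and no coordinates of the files' build were used.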

Additional observations from a re-analysis of the deposited data

Results flagged for a closer look

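In groups of 5 libraries, a library was picked out when its gap to the nearest other library was above 0.71 of the group's range. Among 66 sets (11 genes in 6 groups) 8 were picked out, where chance gives about 1 in 20, or 3.3. Glenn control replicate 1 was high for 3 genes. It had 1097 CPM of Igfbp3 against 202 to 310.3 CPM in the others (gap 0.879 of the range), 547 CPM of Igfbp4 against 223 to 260.5 CPM (0.883), and 13.4 CPM of Igf2 against 7.38 to 8.25 CPM (0.855). Glenn excess replicate 5 was high for Igfbp4, at 709.6 CPM against 302 to 351 CPM (0.879).

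Sham deficient replicate 1 was high for Igf2, at 5.45 CPM against 3.01 to 3.19 CPM (0.926), and for Igfbpl1, at 5.22 CPM against 2.35 to 2.72 CPM (0.873). Sham control replicate 2 was high for Igfbp3, at 22.1 CPM against 6.27 to 10.7 CPM (0.722). Glenn excess replicate 1 was low for Igf1r, at 27.0 CPM against 34.7 to 36.8 CPM (0.779).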

How the results depend on the processing

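Averaged over diets, 7 IGF genes passed under all 40 alternatives. On the control diet 3 IGF genes and 3 pathway genes passed among RT1-CE16-low libraries alone. For excess against control diet after sham, 1 gene (Igfbp5) passed under limma voom with quality weights and under DESeq2, and 0 to 1 when single libraries were left out. The averaged Igfbp2 change, near 0, turned to -0.0498 among RT1-CE16-low libraries and ran from -0.047 to 0.057 when single libraries were left out; the cause was not tested. Of 1834 values of single genes under alternatives, 1792 kept direction and side of the threshold, 21 lost it, 14 gained it and 7 reversed. Most alternatives leave out 1 library, often one outside the groups compared, and many values lay far from the threshold. The total thus says little about calls near it, such as Igf2 on the control diet, which lost its call in 9 of 41 alternatives. All 14 gains were for Igf1r, Igfbp7 and Igfbp5. DESeq2 size factors moved the median log2 change of all genes from -0.013 to -0.0012.

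Same-numbered replicates correlated by -0.26 to 0.37 over 15 pairs (median 0.13, over 0.1 in 10) and 6 of 15 matched best with their own number, so the numbers were not treated as pairs. With the replicate block, 7 IGF genes passed averaged over diets, Igf1r (0.38) and Igfbp7 (-0.26) also passed on the control diet and Igfbp7 (-0.35) on the excess diet. Depth limits H19 most, at 1 to 18 counts in sham libraries.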
